A study of Mus musculus with 6 samples.

Results

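The genes described here belong to the response to amino acid shortage that runs through the transcription factor ATF4. They include Atf4 itself and kinases that act upstream of it. The list of 38 symbols was chosen by name, with earlier results of these arrays in view, and each gene was to be read from the probe set selected on its mean over all 6 arrays. Of the 38, 36 had a probe set annotated to that gene alone, among 19938 genes in all. Each of the 36 had exactly 1 such probe set, so the choice by mean decided nothing. Pycr1 and Gdf15 had none and are not analysed here. The counts of genes that differ between the regions are therefore a description of a list proposed with this contrast known, and are not independent support for its direction.

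The RNA came from neural stem cells cultured from wild-type C57BL/6 female mouse embryos at embryonic day 17.5. One group, SVZ1 to SVZ3 in the labels, was grown from the subventricular zone along the lateral ventricle. The other, TVZ1 to TVZ3, was grown from the zone along the third ventricle. All cultures grew in low-attachment dishes with N2, B27, FGF and EGF at 20 ng/ml each, and the values are log2 expression per probe set. The labels name biological replicates but give no animal for any array, so a p-value here reflects only how far these 6 cultures spread.

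When an amino acid runs short, uncharged tRNA activates the kinase GCN2, which phosphorylates the translation factor eIF2. Stress in the endoplasmic reticulum acts on eIF2 through the kinase PERK. General protein synthesis then slows while the mRNA of ATF4 is translated more. ATF4 pairs with C/EBP proteins on response elements of genes for amino acid synthesis, amino acid uptake and stress control. In neural stem cells these enzymes and transporters supply the serine, asparagine, cystine and one-carbon units that dividing cells use.

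The element that ATF4 binds has the core TGATGNAA, and 6 promoters are shown here because they hold it before the start site of a gene that separated SVZ1 and SVZ3 from the TVZ arrays in the fit without SVZ2. The core was searched on both strands of windows from 250 bases before to 50 bases after each start site in RefSeq (GRCm38.p6). Of the 38 genes 34, all but Aldh1l2, Cth, Slc7a3 and Slc7a5, had windows in that table, and 10 of the 34 (29.4%) held a match, against 4.51% of all 27025 genes with a window. Counted by window the shares were 23.8% of 42 and 3.97% of 32851. Many of the genes were listed as responders to ATF4, which binds this core, so a higher share is in part built into the list. Capitals mark the match, which reads TTGCATCA where it lies on the opposite strand. Each line runs 5′ to 3′ along the gene and ends before the start site.
Asns, chr6:7693210-7693252, minus strand: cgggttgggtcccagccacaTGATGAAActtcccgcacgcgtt
Atf3, chr1:191183416-191183463, minus strand: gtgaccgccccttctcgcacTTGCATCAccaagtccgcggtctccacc
Chac1, chr2:119351029-119351076, plus strand: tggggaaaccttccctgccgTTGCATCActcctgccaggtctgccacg
Nupr1, chr7:126625553-126625600, minus strand: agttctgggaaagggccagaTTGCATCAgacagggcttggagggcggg
Slc7a11, chr3:50443633-50443699, minus strand: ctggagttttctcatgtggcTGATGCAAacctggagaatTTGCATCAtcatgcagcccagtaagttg
Vldlr, chr19:27216800-27216847, plus strand: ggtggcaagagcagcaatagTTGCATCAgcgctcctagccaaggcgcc
The match began 23 bases before the start site in Asns, 110 in Atf3 and Nupr1, 193 in Chac1 and 200 in Vldlr. Slc7a11 held 2 matches on opposite strands, beginning 66 and 47 bases before the start. The 4 others were Fgf21, Pycr1, Slc1a4, where the match spans the start site, and Trib3, where it begins 15 bases after it. A match is a run of letters, not a shown binding site, and a window without one says only that those letters are absent there. In the fit without SVZ2, 7 of 9 measured genes with a match passed as lower, and so did 13 of 23 with a window but no match. Over all genes 3.88% passed as lower in that fit. Whether the match goes with the separation was not tested. Of 12 aminoacyl-tRNA synthetase genes with a window, 4 (33.3%) held a match, and of 18 cell cycle genes 0 did. In the other gene lists described below the share ran from 0% to 16.7%. With 4.51% over all genes, 0 of 18 shows no lack of matches.

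All 36 genes had a lower mean in the TVZ cultures, and none of them passed the test between the regions. Differences ran from -2.33 for Slc7a3 to -0.04 for Eif2ak4 on the log2 scale, with a median of -0.57, against a median of -0.02 over all genes, of which 54.6% were negative. In limma with Benjamini-Hochberg adjustment over all genes, 0 of 36 had an adjusted p below 0.05, against 0.231% of all genes. The lowest adjusted p was 0.283, for Psph. At an unadjusted p below 0.05, 12 of the 36 (33.3%) were lower and 0 higher, against 6.43% of all genes lower.

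The range over the 3 SVZ arrays was wider than the difference between the regions in 35 of 36 genes, all but Atf5. The share of all genes for which this holds was not counted. SVZ2 gave the lowest of the 3 SVZ values in 36 of 36 genes, against 32.4% of all genes. SVZ1 and SVZ3 both lay above the 4 other arrays in 35 of 36 genes, against 14.6% of all genes, the exception being Slc38a2. SVZ3 was the highest of all 6 arrays in 32 genes, against 19.5% of all genes. SVZ1 was the highest in the other 4, Phgdh, Slc1a4, Eif2ak3 and Eif2ak4. The value of SVZ2 fell inside the range of the TVZ arrays in 18 genes, below it in 15 and above it in 3. Over all 19938 genes these counts were 8231, 5028 and 6679. The 3 listed genes with SVZ2 above the TVZ range were Atf5, Trib3 and Psph. They are the genes whose regions did not overlap, 8.33% of the list against 17.0% of all genes. Each value comes from a whole culture, so more cells with the response and more RNA per cell cannot be told apart.

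**Figure D1:**
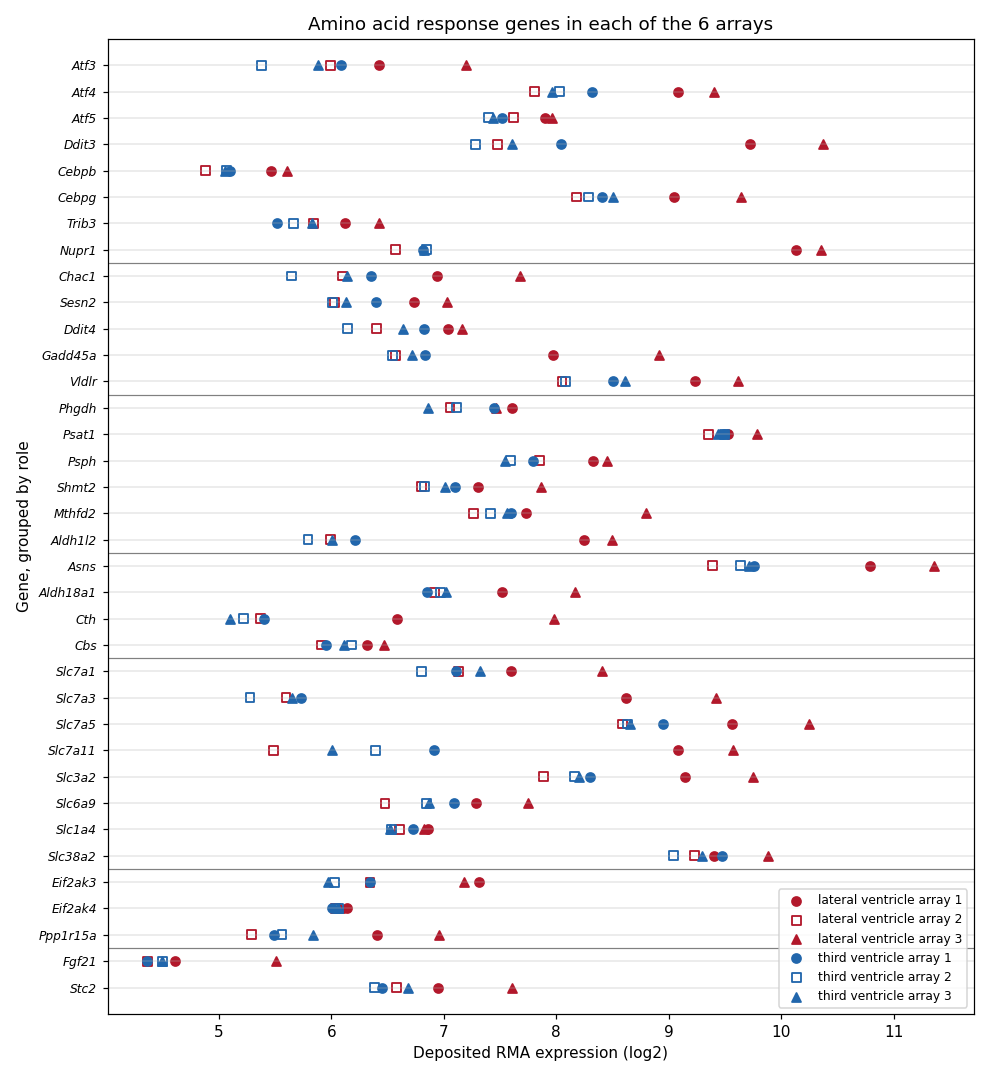
Deposited log2 expression (x axis) of the 36 measured genes (y axis, grouped by role with grey lines between roles) in each of the 6 arrays, red for the lateral ventricle (SVZ) and blue for the third ventricle (TVZ), with a marker shape per array. SVZ1 and SVZ3 lie to the right of the 4 other arrays in 35 of 36 genes, and SVZ2 lies among or near the TVZ arrays.

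Because of this spread the region comparison was also fitted without SVZ2, a choice made with its position known. In that fit, which sets 2 SVZ arrays against 3 TVZ arrays, 24 of the 36 genes (66.7%) passed, all lower in the third ventricle, against 3.88% of all genes lower. The median difference was then -0.91. A call in that fit concerns SVZ1 and SVZ3 and is no difference shared by all SVZ cultures. Set against SVZ2 alone, with no SVZ replicate, the TVZ arrays differed by a median of 0.12. Without SVZ3 the median was -0.28, and 0 of the 36 genes passed, against only 20 of all 19938 genes.

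**Figure D2:**
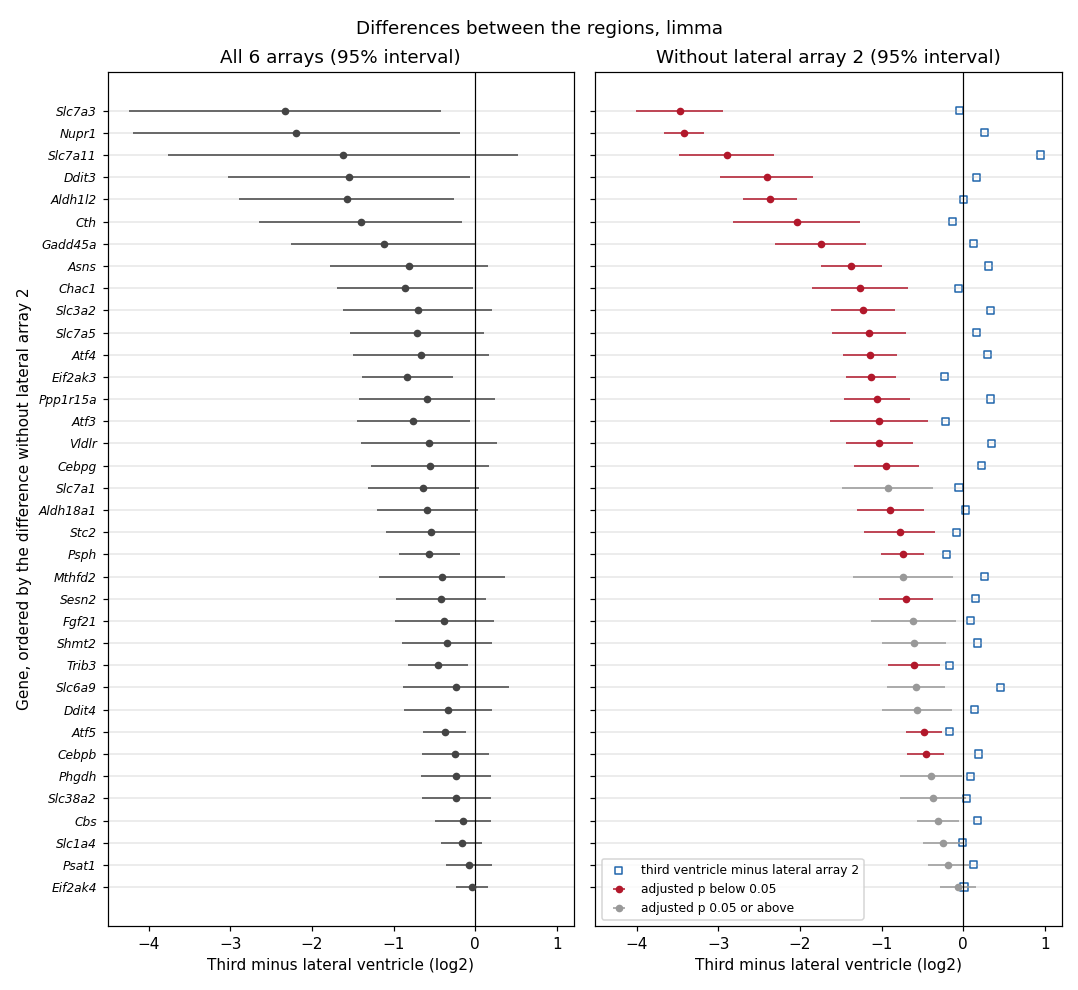
TVZ minus SVZ difference on the log2 scale (x axis) for the 36 genes (y axis), with 95% intervals from limma, over all 6 arrays on the left and without SVZ2 on the right, where red marks an adjusted p below 0.05. Open squares give the TVZ mean minus SVZ2 alone. In the right panel 24 genes are red, while the squares scatter around 0.

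The transcription factors and other regulators of the response showed the pattern in all 8 measured genes. Atf4, the central activator, stood at 9.08, 7.81 and 9.40 in SVZ1, SVZ2 and SVZ3, and at 8.31, 8.03 and 7.97 in the TVZ arrays. SVZ2 was thus the lowest of the 6, and the regions overlapped. The difference of -0.66 (SE 0.36) had an adjusted p of 0.495 in limma, and -1.14 (adjusted p = 0.00252) without SVZ2. Ddit3, which encodes the ATF4 partner CHOP, had values of 9.73, 7.48 and 10.37 in the SVZ and 8.04, 7.28 and 7.60 in the TVZ arrays. Its difference was -1.55 (95% interval -3.03 to -0.07, adjusted p = 0.379). Without SVZ2 it was 5.31-fold higher in the SVZ cultures (limma, adjusted p = 0.000998).

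Nupr1, a small stress-induced nuclear protein, split the SVZ arrays by over 3 log2 units. It stood at 10.13 and 10.35 in SVZ1 and SVZ3, at 6.57 in SVZ2, and at 6.81, 6.85 and 6.82 in the TVZ arrays. The TVZ SD was 0.02 and the SVZ SD 2.12 (n = 3 each). Over all arrays the difference was -2.19 (adjusted p = 0.366), and without SVZ2 the SVZ level was 10.7-fold higher (limma, adjusted p = 1.71e-05), the lowest adjusted p of the list. SVZ2 differed from the TVZ mean by 0.26, in the opposite direction.

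The other regulators had narrower ranges. Atf3, an ATF4 target that also acts as a repressor, had values of 6.43, 6.00 and 7.19 in the SVZ and 6.09, 5.38 and 5.88 in the TVZ arrays, with adjusted p of 0.366 over all arrays. Cebpg, a dimerization partner of ATF4, stood at 9.04, 8.18 and 9.64 against 8.41, 8.29 and 8.51. Cebpb, another C/EBP factor, differed by -0.24, but it lay near background, above the 95th percentile of olfactory receptor genes in 2 of 3 SVZ and 1 of 3 TVZ arrays. Atf5, a related factor translated under the same control, and Trib3, a pseudokinase that restrains ATF4, did not overlap between the regions. Atf5 stood at 7.90, 7.62 and 7.96 in the SVZ and 7.52, 7.40 and 7.44 in the TVZ arrays (limma, adjusted p = 0.297). Trib3 averaged 6.13 ± 0.29 in the SVZ and 5.67 ± 0.16 in the TVZ arrays (SD, n = 3; limma, adjusted p = 0.337). All 8 genes of this role passed as lower without SVZ2, against 3.88% of all genes. The same share is the background for each count of lower genes in that fit below.

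Among the stress effectors, Gadd45a, a growth arrest gene, had the widest range. Its values were 7.97, 6.57 and 8.91 in the SVZ and 6.83, 6.55 and 6.72 in the TVZ arrays, a difference of -1.12 (SE 0.49, adjusted p = 0.395 in limma). Chac1, which breaks down glutathione, stood at 6.94, 6.10 and 7.67 against 6.35, 5.64 and 6.13. Both had SVZ2 inside the TVZ range. Vldlr, a lipoprotein and reelin receptor, stood at 9.23, 8.05 and 9.61 in the SVZ and 8.50, 8.08 and 8.61 in the TVZ arrays, a difference of -0.57. Sesn2, an inhibitor of mTORC1 signalling, stood at 6.74, 6.03 and 7.03 against 6.40, 6.01 and 6.13. Ddit4, another mTORC1 inhibitor, stood at 7.04, 6.40 and 7.16 against 6.82, 6.15 and 6.64, so that TVZ2 and not SVZ2 was the lowest array. Without SVZ2, 4 of the 5 passed as lower, and Ddit4 did not (-0.56, adjusted p = 0.118).

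Asns encodes asparagine synthetase, a classic target of the pathway. Its values were 10.79, 9.39 and 11.36 in SVZ1, SVZ2 and SVZ3 and 9.76, 9.64 and 9.71 in the TVZ arrays. SVZ2 was the lowest of the 6, and the TVZ arrays had an SD of 0.06. Cth, cystathionine gamma-lyase, which makes cysteine, stood at 6.58, 5.37 and 7.98 against 5.41, 5.22 and 5.10. Its difference of -1.40 (SE 0.54) had an adjusted p of 0.357 in limma, and -2.04 (adjusted p = 0.00880) without SVZ2. For Cth, 2 of 3 TVZ arrays lay above background. Cbs, the enzyme before it in the same route, stood at 6.32, 5.91 and 6.46 against 5.95, 6.18 and 6.11, a difference of -0.15. Aldh18a1, which starts proline synthesis, stood at 7.52, 6.92 and 8.17 against 6.85, 6.97 and 7.02, with SVZ2 inside the TVZ range. Of these 4 genes, 3 passed as lower without SVZ2, and Cbs did not (-0.31, adjusted p = 0.15).

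The serine and folate enzymes differed among themselves. Phgdh and Psat1, the first 2 enzymes of serine synthesis, differed by -0.24 and -0.08, and neither passed in any fit here. Phgdh stood at 7.61, 7.06 and 7.47 in the SVZ and 7.45, 7.11 and 6.86 in the TVZ arrays, where TVZ1 came close to SVZ3. Psat1 stood at 9.53, 9.36 and 9.79 against 9.49, 9.50 and 9.44, with a 95% interval of the difference from -0.36 to 0.20. Psph, the last enzyme, had values of 8.33, 7.85 and 8.45 in the SVZ and 7.79, 7.60 and 7.55 in the TVZ arrays. The regions did not overlap, and the difference was -0.56 (95% interval -0.93 to -0.19, adjusted p = 0.283 in limma). In the mitochondrial folate route, Aldh1l2, which oxidizes formyl-tetrahydrofolate, stood at 8.25, 6.00 and 8.49 against 6.21, 5.79 and 6.01. Without SVZ2 it was 5.16-fold higher in the SVZ cultures (adjusted p = 0.000253). Mthfd2 and Shmt2, the enzymes upstream of it, had SVZ SDs of 0.79 and 0.53 and differed by -0.41 and -0.35. In Mthfd2 the SVZ values were 7.73, 7.26 and 8.80 and the TVZ values 7.60, 7.41 and 7.56, so that SVZ3 stood apart from the 5 other arrays. They did not pass without SVZ2 (adjusted p = 0.148 and 0.0730), where Psph and Aldh1l2 were the 2 of 6 genes that did.

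The transporters Slc7a11 and Slc7a3 had the widest ranges within the SVZ arrays. By the range over the 3 SVZ arrays, Slc7a11 ranked 1, Slc7a3 ranked 2 and Nupr1 ranked 3 among all 19938 genes. Slc7a11, the cystine and glutamate exchanger that feeds glutathione synthesis, stood at 9.09, 5.49 and 9.57 in the SVZ and 6.91, 6.39 and 6.00 in the TVZ arrays. SVZ2 thus lay below every TVZ array, 0.95 under their mean, while SVZ1 and SVZ3 lay above them. The difference over all arrays was -1.62 (95% interval -3.76 to 0.53, adjusted p = 0.518 in limma). Slc7a3, a carrier of arginine and lysine, stood at 8.62, 5.60 and 9.42 against 5.73, 5.28 and 5.65. It differed by -2.33 (SE 0.83, adjusted p = 0.340), and without SVZ2 the SVZ level was 11.1-fold higher (adjusted p = 0.000288).

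Slc7a5 and Slc3a2, which together form the large neutral amino acid exchanger, ranked the 6 arrays in the same order. Slc7a5, the light chain, stood at 9.56, 8.59 and 10.25 in the SVZ and 8.95, 8.64 and 8.66 in the TVZ arrays. Slc3a2, the heavy chain that Slc7a11 also uses, stood at 9.14, 7.88 and 9.75 against 8.30, 8.16 and 8.20. For both, SVZ2 was the lowest of the 6. Slc7a1, a widely expressed carrier of arginine and lysine, stood at 7.59, 7.13 and 8.41 in the SVZ and 7.11, 6.80 and 7.32 in the TVZ arrays. It differed by -0.63 and missed the threshold without SVZ2 (-0.93, limma, adjusted p = 0.0555). The glycine transporter Slc6a9 stood at 7.29, 6.48 and 7.75 against 7.09, 6.85 and 6.87, with SVZ2 the lowest of the 6. The alanine and serine carrier Slc1a4 differed by -0.17 and the glutamine carrier Slc38a2 by -0.23, with SVZ ranges below 1 in both. In Slc38a2, SVZ1 (9.40) lay below TVZ1 (9.48). Of the 8 transporters 4 passed as lower without SVZ2, namely Slc7a3, Slc7a5, Slc7a11 and Slc3a2.

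The 2 eIF2 kinases on the list differed in how far they spread. Eif2ak4, which encodes the amino acid sensor GCN2, ran from 6.03 to 6.14 in the SVZ and from 6.00 to 6.07 in the TVZ arrays, the narrowest SVZ range of the list. Within the TVZ arrays Nupr1, Cebpb and Psat1 had narrower ranges. Its difference was -0.04 (95% interval -0.24 to 0.16). Eif2ak3, which encodes PERK, stood at 7.31, 6.34 and 7.18 against 6.35, 6.03 and 5.97, a difference of -0.83 (95% interval -1.39 to -0.27, adjusted p = 0.287 in limma). Ppp1r15a, the phosphatase subunit that ends the response by dephosphorylating eIF2, stood at 6.41, 5.29 and 6.96 against 5.49, 5.56 and 5.84. Eif2ak3 and Ppp1r15a passed as lower without SVZ2, and Eif2ak4 did not (adjusted p = 0.781).

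Of the secreted signals, Stc2, a stanniocalcin induced by endoplasmic reticulum stress, stood at 6.95, 6.58 and 7.61 in the SVZ and 6.45, 6.38 and 6.68 in the TVZ arrays (limma, adjusted p = 0.394). It passed as lower without SVZ2 (-0.78, adjusted p = 0.0437). Fgf21, a metabolic hormone, lay above the background gauge in 1 SVZ array, SVZ3 at 5.51, and in 0 of 3 TVZ arrays, so no fold is given.

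In these genes the TVZ cultures varied less than the SVZ cultures. Over the 36 genes the SD had a median of 0.63 in the SVZ and 0.15 in the TVZ arrays, against 0.15 and 0.10 over all genes. The SVZ SD was the larger in 35 of 36, Phgdh being the exception, against 13318 of all 19938 genes. An SVZ range above 1, which is more than 2-fold, was seen in 24 of the 36 genes (66.7%), against 3.63% of all genes. A TVZ range above 1 was seen in 0 of the 36, and in only 18 of all 19938 genes. Within this group, TVZ1 was the highest in 24 genes and TVZ2 the lowest in 20, against 31.1% and 32.0% of all genes. Of the 20 genes with the widest SVZ range on the arrays, 5 were Slc7a11, Slc7a3, Nupr1, Ddit3 and Cth.

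**Figure D3:**
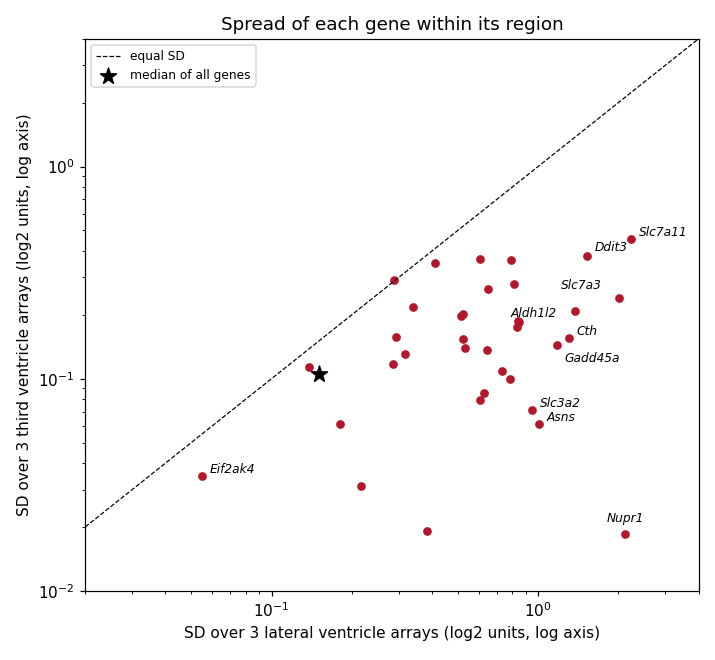
SD of each of the 36 genes over the 3 TVZ arrays (y axis) against its SD over the 3 SVZ arrays (x axis), both in log2 units on log axes, with the dashed line at equal SD and the star at the medians of all genes. All genes but Phgdh lie below the line, and Nupr1 combines an SVZ SD of 2.12 with a TVZ SD of 0.02.

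Neighbouring pathways were read from lists of their other genes, which leave out the 36. Among the aminoacyl-tRNA synthetases and the tRNA exporter Xpot, 0 of 19 passed over all arrays and 16 were negative, with a median of -0.40. The highest means were those of Rars, at 10.96, 10.67 and 11.52 in the SVZ and 10.61, 10.68 and 10.57 in the TVZ arrays, and Eprs, at 10.59, 10.00 and 10.89 against 9.90, 9.91 and 9.91. Without SVZ2, 8 of 19 (42.1%) passed, all lower. Other amino acid transporters had a median of -0.19, with 0 of 19 passing. Slc38a1, a glutamine carrier, differed by -0.61 (adjusted p = 0.303) and the glial glutamate transporter Slc1a3 by -0.12. Without SVZ2, Slc1a1 and Slc38a1 passed as lower.

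The other arms of the endoplasmic reticulum stress response had medians near 0. Of 21 chaperone, ATF6 and IRE1-XBP1 genes, 0 passed over all arrays and the median was -0.06. The chaperones Hsp90b1 and Canx differed by 0.01 and 0.02. Without SVZ2, 4 of 21 passed, all lower: Sel1l and Herpud1 of protein degradation and the factors Atf6 and Xbp1. Of 13 genes for eIF2, eIF2B and their other regulators 0 passed, with a median of -0.06 and Eif2s2 and Eif2s3x both at -0.06. Without SVZ2, Impact, an inhibitor of GCN2 activation, and Ppp1r15b passed as lower and Eif2ak2, the kinase PKR, as higher. These genes, and those named for that fit in the list of transporters before and the lists that follow, were chosen after their values were seen.

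Targets of p53 and NRF2, which share some genes with the ATF4 response, had 0 passing genes over all arrays. Of 11 p53 targets 0 passed in either fit, with a median of 0.04, Ccng1 at 0.26 and Trp53inp1 at 0.03. Of 10 NRF2 targets 0 passed over all arrays, with a median of -0.19. Hmox1, heme oxygenase, stood at 8.82, 7.12 and 9.34 in the SVZ and 7.76, 7.77 and 7.52 in the TVZ arrays, and Me1 differed by 0.06. Hmox1, Srxn1 and Gclc passed as lower without SVZ2. The other folate, glycine and methionine cycle genes had a median of 0.21, with 0 of 10 passing, Gcsh at 0.48 and Mthfd1l at 0.12. Without SVZ2, Tyms, Shmt1, Gldc and Gcsh passed as higher.

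Cell cycle genes ran the opposite way over the same arrays. Relative to each gene's mean over the 6 arrays, their median was -1.36, 0.57 and -0.89 in SVZ1, SVZ2 and SVZ3 and between 0.55 and 0.61 in the TVZ arrays. For the 36 amino acid response genes the medians were 0.35, -0.36 and 0.93 in the SVZ and -0.18, -0.39 and -0.21 in the TVZ arrays. SVZ1 was the lowest in cell cycle genes, while SVZ3 was the highest in the amino acid response. Of 21 cell cycle genes 0 passed over all arrays and 21 did as higher in the third ventricle without SVZ2, against 4.37% of all genes higher. Top2a, the topoisomerase of dividing cells, stood at 8.87, 11.06 and 9.58 in the SVZ and 11.04, 10.95 and 11.03 in the TVZ arrays, and the replication clamp Pcna differed by 0.56. The part of cell division in the amino acid response values was not tested.

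**Figure D4:**
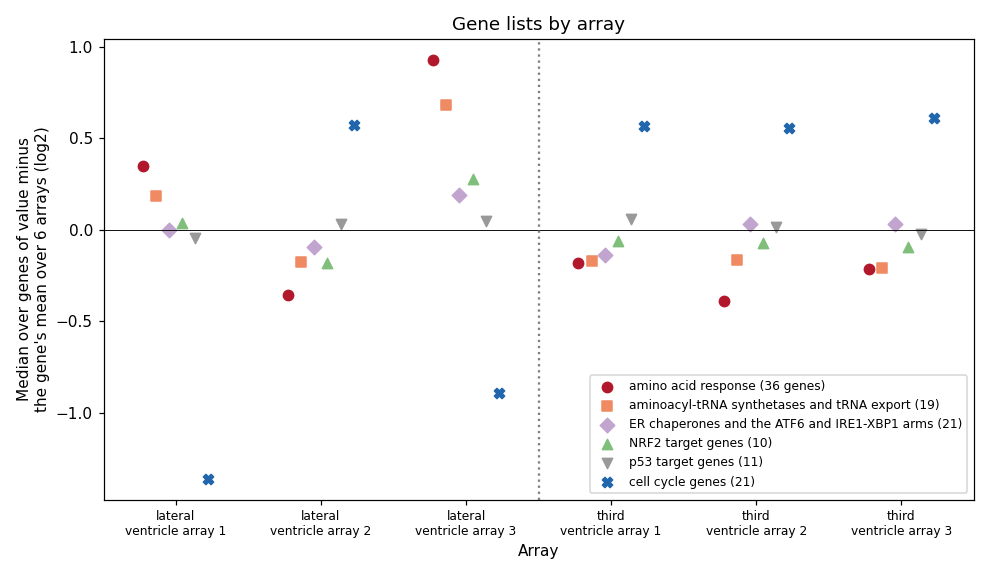
Median over the genes of a list of each value minus that gene's mean over the 6 arrays (y axis, log2), for 6 gene lists in each array (x axis), with the lateral ventricle left of the dotted line. The amino acid response is at 0.35 and 0.93 in SVZ1 and SVZ3 and below 0 in the 4 other arrays, and the cell cycle list has the opposite signs.

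The arrays carried neural stem cell transcripts throughout. Over 10 stem cell markers the mean log2 level was 8.26 to 8.43 in the SVZ and 8.21 to 8.41 in the TVZ arrays, with 0 of 10 below background in all arrays. Of the 10, 6 were lower in the TVZ mean and 4 higher, with a median of -0.08, and 0 passed over all arrays. Fabp7 and Vim, which had the highest means, differed by 0.05 and 0.19. Nes, the neural stem cell filament nestin, stood at 6.47, 7.70 and 6.95 in SVZ1, SVZ2 and SVZ3 and at 7.51, 7.67 and 7.54 in the TVZ arrays. SVZ2 thus lay with the TVZ arrays for Nes, which passed as higher without SVZ2 (0.86, limma, adjusted p = 0.0103).

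Of 8 astrocyte markers 1, Gfap, lay below background. The mean over the 8 markers was 6.997 to 8.06 in the SVZ and 7.20 to 7.45 in the TVZ arrays. Their median relative to gene means was 0.51, -0.29 and -0.08 in SVZ1, SVZ2 and SVZ3, with SVZ1 the highest. Of the 8, 5 were lower in the TVZ mean and 3 higher, with a median of -0.08. Sparcl1 and Aldoc, which had the highest means of the list, differed by 0.94 (adjusted p = 0.202) and 0.17. Apoe stood at 11.11, 8.27 and 9.58 in the SVZ and 8.81, 8.13 and 7.96 in the TVZ arrays, so SVZ1 and SVZ3 lay above the 4 other arrays as in the amino acid response. It differed by -1.35 (limma, adjusted p = 0.409), and by -2.04 (adjusted p = 0.0210) without SVZ2, a fit in which Sparcl1 passed as higher. The mean over 7 oligodendrocyte lineage markers was 6.35 to 6.51 in the SVZ and 5.83 to 5.94 in the TVZ arrays. Of them 1, Mag, lay below background. Of the 7, 6 were lower in the TVZ mean, and Pdgfra was lower in the third ventricle (-1.79, limma, adjusted p = 0.00707). In the fit without SVZ2, 2 of the 7 passed as lower. The mean over 8 neuronal markers was 6.75 to 7.08 in the SVZ and 6.39 to 6.62 in the TVZ arrays. Of them 1, Stmn2, lay below background. At an unadjusted p below 0.05 in limma, 5 of the 8 were lower, among them Stmn2, against 6.43% of all genes. Of the 8, 7 were lower in the TVZ mean, with a median of -0.32 and 0 passing over all arrays. Map2 was the exception at 0.24, and Tubb3 differed by -0.60. Dcx, doublecortin of young neurons, stood at 7.70, 6.41 and 6.86 in the SVZ and 5.81, 5.27 and 5.003 in the TVZ arrays, and the regions did not overlap (-1.63, limma, adjusted p = 0.136). Without SVZ2, Dcx and Tubb3 passed as lower. Nes, Apoe and Dcx were named after their values were seen. The part of these cell types in the values of the 36 genes was not tested.

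Markers of blood vessels, meninges and microglia were at or near background. Of 8 microglia markers 5 lay below background in all 6 arrays, among them Aif1, Csf1r and P2ry12, and the list mean was 4.62 to 4.64 in the SVZ and 4.48 to 4.70 in the TVZ arrays. Of 8 endothelial markers 6 did, among them Pecam1 and Cdh5 (4.25 to 4.42 and 4.32 to 4.48), and of 8 meningeal and fibroblast markers 4, among them Dcn and Lum (4.55 to 4.64 in both regions). The markers with the highest means differed by 0.03 for Cx3cr1, -0.03 for Tyrobp, 0.29 for Flt1, -0.25 for Esam, 0.05 for Col1a1 and -0.01 for Col1a2, and none passed.

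The 6 arrays had medians of 5.43 to 5.47 over their probe sets. Over all genes, the TVZ arrays correlated with each other at 0.995, and SVZ2 correlated with them at 0.991 and with SVZ1 and SVZ3 at 0.980 and 0.982. These correlations are across genes, which are not independent replicates.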

How the data were processed

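RNA was amplified with the NuGEN WT-Ovation Pico system and hybridized to Affymetrix arrays, per the labels' protocols. The authors deposited log2 values per probe set, and the submitters' processing notes name RMA and Expression Console 1.1. The genome build was not given in the sources used here.

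The platform annotation gave 1 symbol to 21789 of 35556 probe sets, several to 1621 and none to 12146. The probe set with the highest mean stood for a gene, which left 19938 genes. Groups follow the titles. Regions were compared with limma 3.58.1 (lmFit, eBayes) in R 4.3.3, TVZ minus SVZ, with Benjamini-Hochberg adjustment over all genes at 0.05. The method was tested on simulated data with the same spread in both regions. That test does not cover the unequal spread of the 36 genes or the fit without SVZ2. The number of arrays limits the precision, and an exact permutation of 3 against 3 arrays cannot go below p = 0.1. Background was gauged by the 95th percentile of 1027 olfactory receptor genes in each array (5.03 to 5.16).

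The members, the 15 other lists (181 of 193 entries measured; Slc1a2 and Slc1a3 are in a transporter and a marker list), and the alternatives were chosen with earlier results of these data known. Named are every measured member and, of each other list, up to 4 passing genes or the 2 with the highest mean. Genes passing without SVZ2 are named besides in some of these lists and only counted in the others. Alternatives covered the probe set, dim genes, normalization, the variance prior, array weights, the replicate block and left-out arrays.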

Additional observations from a re-analysis of the deposited data

How the results depend on the processing

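Over all 6 arrays, 0 of 36 amino acid response genes passed under each of the 7 alternatives that kept every array, and each measured difference stayed negative; without the lowest 40% of genes 35 were left, since Fgf21 dropped out. With array weights the median difference was -0.75 and the lowest adjusted p 0.0660. With arrays left out, the count of passing genes ran from 0 to 24, the latter without SVZ2, and the median difference from -0.91 without that array to 0.12 without SVZ1 and SVZ3. In the last of these the lone SVZ array is taken to have the spread of the TVZ arrays.

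In 25 genes the difference turned positive without SVZ1 and SVZ3, and in Psat1, Mthfd2 and Slc6a9 also without SVZ3 alone (0.036, 0.028 and 0.056). The lowest and highest differences with arrays left out were, for Atf4, -1.14 and 0.29, for Ddit3 -2.41 and 0.17, for Cebpb -0.46 and 0.19, for Cebpg -0.94 and 0.22, and for Nupr1 -3.42 and 0.26. They were -0.70 and 0.15 for Sesn2, -0.56 and 0.14 for Ddit4, -1.75 and 0.12 for Gadd45a, and -1.03 and 0.35 for Vldlr. Among enzymes they were -0.40 and 0.086 for Phgdh, -0.18 and 0.12 for Psat1, -0.61 and 0.18 for Shmt2, -0.74 and 0.26 for Mthfd2, -2.37 and 0.0079 for Aldh1l2, -1.37 and 0.31 for Asns, -0.89 and 0.031 for Aldh18a1, and -0.31 and 0.17 for Cbs. Among transporters they were -1.16 and 0.16 for Slc7a5, -2.90 and 0.95 for Slc7a11, -1.23 and 0.34 for Slc3a2, -0.58 and 0.46 for Slc6a9, and -0.37 and 0.045 for Slc38a2. They were -0.064 and 0.011 for Eif2ak4, -1.05 and 0.34 for Ppp1r15a, and -0.61 and 0.088 for Fgf21.

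With the replicate block 0 of 36 passed (lowest adjusted p 0.181), and 57 of all genes did. Same-numbered arrays of the regions correlated at 0.24, 0.111 and 0.0679 in their deviations from the group means. Each array correlated best with its own number, which is a hint from the data and not part of the design, so the numbers were not taken as pairs.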

Other observations

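Other genes spread as widely over the lateral ventricle cultures as the amino acid response. Of the 20 genes with the widest range over the 3 SVZ arrays, 5 belong to that response and 15 do not, and these were named after their values were seen. In 5 of the 15, SVZ1 and SVZ3 lay above the 4 other arrays. Moxd1, a monooxygenase-like protein, stood at 7.92, 6.11 and 9.52 in SVZ1, SVZ2 and SVZ3 and at 5.22, 5.10 and 5.37 in the TVZ arrays. Abca1, a cholesterol exporter, stood at 8.86, 6.02 and 7.35 against 6.98, 6.02 and 6.20, and Apoe, a lipid carrier on the astrocyte marker list, had the same direction. In both, SVZ1 was the highest, unlike Moxd1, where SVZ3 was. The 2 others were Ostn, a secreted peptide gene, and the potassium channel gene Kcnt2.

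In the other 10, SVZ1 and SVZ3 lay below the 4 other arrays. They were Fam111a, Hells, Pbk, Dscc1, Mcm3, Lrr1, Fam72a, Rrm2, Ttk and Fignl1, among which Mcm3 and Rrm2 act in DNA replication and Ttk in the mitotic spindle checkpoint. Fam111a, the widest of them, stood at 6.10, 9.59 and 7.68 in the SVZ and 9.03, 9.39 and 9.57 in the TVZ arrays. None of the 15 passed in limma over all 6 arrays, where 0.231% of all genes did. Without SVZ2 all 15 passed, where 3.88% of all genes passed as lower and 4.37% as higher. They were picked for a wide SVZ range, which itself raises the error of the test over all 6 arrays. The fit without SVZ2 was chosen with its position known.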
